A study of Mus musculus with 12 samples.

Results

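The acyl-CoA thioesterases examined here are the 9 mouse genes Acot1, Acot2, Acot3, Acot4, Acot7, Acot8, Acot9, Acot12 and Acot13. They were chosen by name, with earlier results of these data known. A probe was taken where the transcript accession it was designed to belongs to one of these symbols. This gave 10 of the 41174 distinct probes of the array, 2 for Acot4 and 1 for each other gene. Acot5, Acot10 and Acot11 also have probes on the array but were not in the set. All 9 genes passed the filter on dim probes and are among the 14627 named genes of the fits. Whole livers came from C57BL/6 mice fed for 2 days either control chow or chow containing 0.1% Wy-14643, an agonist of the nuclear receptor PPARα. All mice carried the MycF/F alleles, in which Myc can be excised by Cre recombinase, and some also carried ERT2-Cre, a Cre protein that is activated by tamoxifen. Untreated MycF/F liver was read on 1 array, from pooled RNA, and treated MycF/F liver on 3 arrays. MycF/F,ERT2-Cre livers took 4 arrays for the control diet and 4 for Wy-14643. The labels call the MycF/F mice wild type and the MycF/F,ERT2-Cre mice knockout. The promoter that drives ERT2-Cre, the tamoxifen treatment, age and sex were not given in the sources.

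Acyl-CoA thioesterases cleave the thioester bond of acyl-CoA, which releases a free fatty acid or other acid and coenzyme A, and so oppose the acyl-CoA synthetases. The type I enzymes (Acot1 to Acot6 in the mouse) share an α/β-hydrolase fold and are encoded side by side, whereas the type II enzymes (Acot7 to Acot13) are built from hotdog-fold domains and are otherwise unrelated to type I. Different members act in the cytosol, mitochondria or peroxisomes and prefer different chain lengths, and several type I genes are known targets of PPARα in rodent liver.

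Each value is a log2 ratio of the sample, read in Cy5, to a pooled liver reference, read in Cy3 on every array, so 0 means the level of the reference on that probe. All 120 spots of the 10 probes were well above background in both channels and none was saturated. The scanner software marked 27 of these 120 spots as outliers, 19 of them among the 40 spots on slide 1, 6 on slide 2 and 2 on slide 3. The 12 arrays lay on 3 slides of 4, each scanned at its own time. Marked spots were left out of the fits. Their values are still given below, and values fitted with them are placed beside the main ones where they matter. The 10-spot probe for Myc, the targeted gene, was at 0.23 in MycF/F control liver, at 0.53 to 0.90 in MycF/F livers on Wy-14643, at -1.05 to -0.22 in MycF/F,ERT2-Cre livers on control diet and at -1.20 to -0.96 in those on Wy-14643. A 1-spot probe gave the same order, while the brightest Myc probe differed by -0.57 (SE 0.17, adjusted p = 0.281, limma) between genotypes on Wy-14643; none of the probes was placed relative to the excised exons. Hepatocyte markers were present, with 9 of the 12 listed genes tested. Nothing says whether the arrays of a group came from separate animals, so the p-values measure the spread between these samples.

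Wy-14643 raised most of these genes. Of the 9 genes, 7 rose in MycF/F,ERT2-Cre livers and none fell (adjusted p under 0.05, limma), against 16.4% of all 25134 genes and unnamed probes called in either direction (8.92% higher and 7.44% lower). The cytosolic long-chain enzyme Acot1 rose 17.9-fold. Acot3, Acot2, Acot4 and Acot8, which are peroxisomal or mitochondrial, rose 3.37-fold to 5.62-fold, and the cytosolic Acot12 and Acot7 rose 1.64-fold and 1.40-fold. Acot9 and Acot13 did not pass the test. The median log2 change was 1.75 over the 9 genes and 0.03 over all genes. On the arrays themselves, marked spots included, all 7 Wy-14643 arrays lay above all 5 control arrays for 7 of the 9 genes, a separation seen in 7.15% of 25271 genes and unnamed probes, with 6.37% separated the other way. These are whole livers, so more transcript per cell and more cells that express a gene cannot be told apart.

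Acot1 releases long-chain fatty acids in the cytosol. Its log2 ratio (probe A_51_P451574) was -3.50 in MycF/F control liver and -2.96, -3.51, -2.96 and -3.62 in the MycF/F,ERT2-Cre control livers, the second of these marked. Treated livers gave 1.44 (marked), 0.94 and 0.97 in MycF/F livers and 1.41, 0.80, 0.84 and 0.90 in MycF/F,ERT2-Cre livers. The lowest treated array stood above the highest control array by 3.78 log2 units with marked spots included, more than the range within either diet. The log2 change in MycF/F,ERT2-Cre livers was 4.17 (SE 0.19, n = 3 and 4, adjusted p = 3.94e-07, limma), the 6th highest among those 25134, and 4.30 with the marked spots.

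Acot2 is the mitochondrial counterpart of Acot1. Its log2 ratio (A_52_P525183, no marked spot) was -1.45 in MycF/F control liver and -1.56, -0.87, -1.33 and -1.61 in MycF/F,ERT2-Cre control livers. With the drug it reached 1.12, 0.99 and 1.38 in MycF/F and 0.40, 0.87, 1.098 and 0.98 in MycF/F,ERT2-Cre livers. The diets did not overlap, and replicate 1 of the treated MycF/F,ERT2-Cre livers was the lowest treated array. The log2 change in MycF/F,ERT2-Cre livers was 2.18 (SE 0.18, n = 4 and 4, adjusted p = 6.22e-06, limma).

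Acot3 is a peroxisomal long-chain thioesterase. Its log2 ratio (A_51_P420489) was -2.11 in MycF/F control liver and -1.52, -2.07, -1.80 and -2.41 in MycF/F,ERT2-Cre control livers, of which only the last was unmarked. On Wy-14643 it was 0.01, 0.03 (marked) and -0.18 in MycF/F livers and 0.71 (marked), 0.04 (marked), 0.23 and -0.08 in MycF/F,ERT2-Cre livers. The diets did not overlap, but the test in MycF/F,ERT2-Cre livers rested on 1 control and 2 treated arrays, with a log2 change of 2.49 (SE 0.19, adjusted p = 0.000363, limma). With the marked spots on all 8 arrays it was 2.21 (SE 0.18, adjusted p = 5.83e-06).

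Acot4 is a peroxisomal enzyme that cleaves succinyl-CoA and other dicarboxylyl-CoAs. Its brighter probe (A_52_P215170) was at -1.99 in MycF/F control liver and at -1.25 (marked), -1.57 (marked), -1.41 and -2.08 in MycF/F,ERT2-Cre control livers. On Wy-14643 it was at 1.09 (marked), 0.24 and 0.02 in MycF/F and at 0.96, 0.26, 0.24 (all 3 marked) and 0.26 in MycF/F,ERT2-Cre livers. The 2 highest values were both marked spots of slide 1. The log2 change in MycF/F,ERT2-Cre livers was 2.01 (SE 0.28, n = 2 and 1, adjusted p = 0.00498, limma). The other probe (A_51_P396141) read -1.76, then -1.63 (marked), -1.32 (marked), -1.47 and -1.79 in the control groups in the same order, and 0.41 (marked), 0.28 and 0.14, then 0.33, 0.23, 0.38 and 0.32 in the treated groups. Fitted by itself over 2 control and 4 treated arrays it changed by 1.94 (SE 0.12, adjusted p = 4.81e-06), so the probes differed by less than the SE of the brighter probe.

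**Figure D1:**
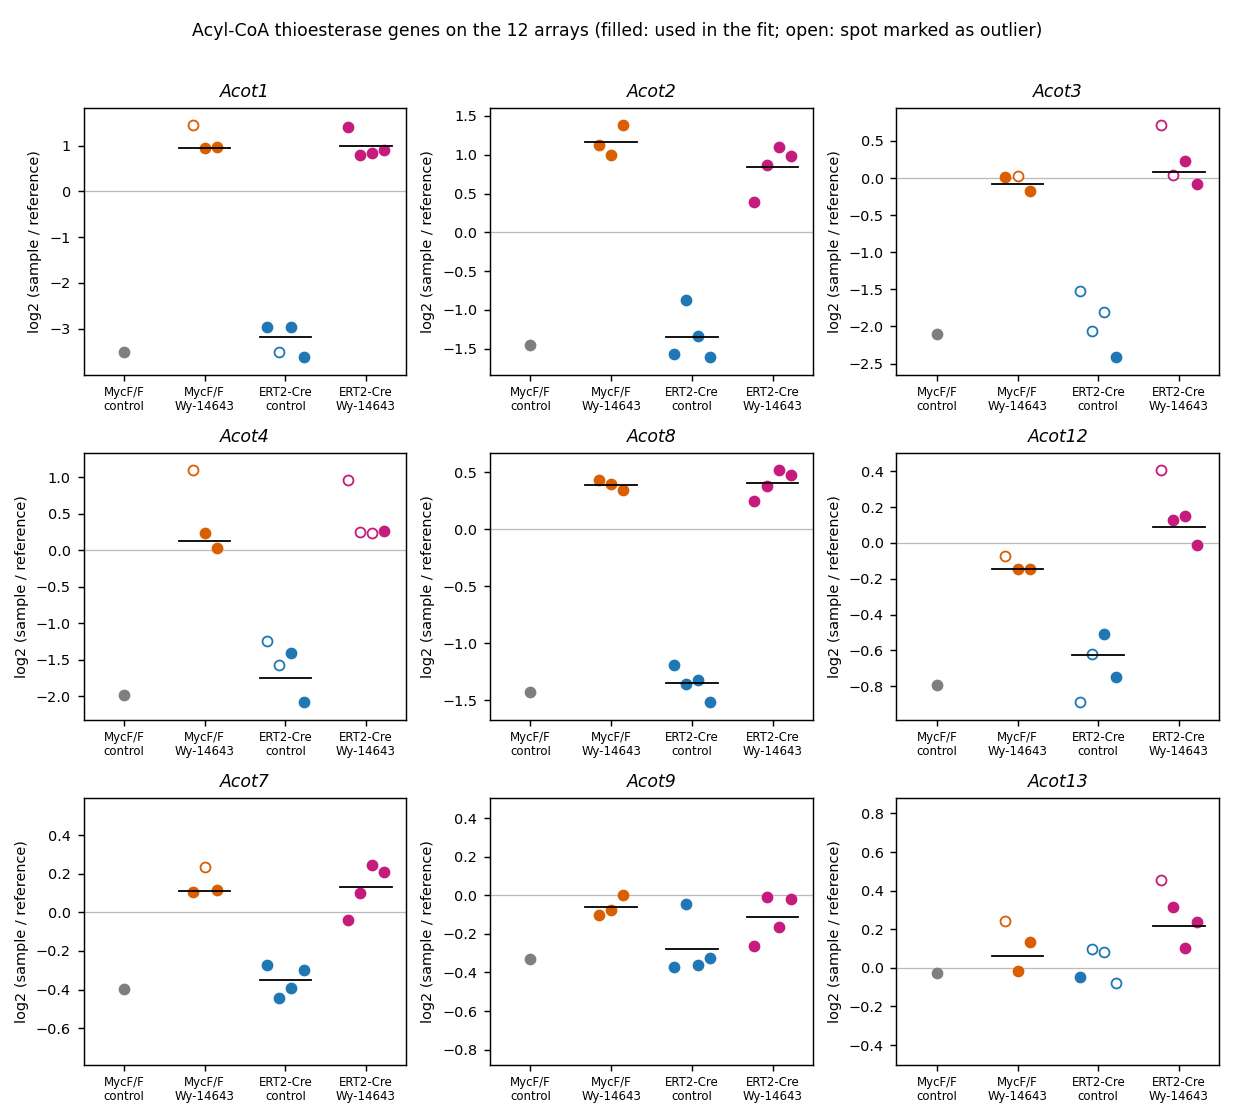
Log2 ratio of sample to reference on each of the 12 arrays (vertical axis, scaled per gene) for the 9 acyl-CoA thioesterase genes in the 4 groups; filled points entered the fit, open points are spots marked as outliers, and black lines are means of filled points where a group has at least 2. Treated and control arrays separate completely for all genes but Acot9 and Acot13, with a gap of 3.78 for Acot1.

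Acot1, Acot2, Acot3 and Acot4 lie next to each other on chromosome 12 in the order Acot2, Acot1, Acot4, Acot3, followed by Acot5 and Acot6. The 250 bases before the annotated start of each are shown because these 4 neighbours rose together; they come from RefSeq on GRCm38.p6, are written 5′ to 3′ and lie on the + strand at chr12:84009252-84009501 (Acot1), chr12:83987611-83987860 (Acot2), chr12:84051894-84052143 (Acot3) and chr12:84038129-84038378 (Acot4). Capitals mark AGGTCA on either strand (read as TGACCT on the other), the core that nuclear receptors bind, and CACGTG, the E-box that MYC with MAX binds.
Acot1: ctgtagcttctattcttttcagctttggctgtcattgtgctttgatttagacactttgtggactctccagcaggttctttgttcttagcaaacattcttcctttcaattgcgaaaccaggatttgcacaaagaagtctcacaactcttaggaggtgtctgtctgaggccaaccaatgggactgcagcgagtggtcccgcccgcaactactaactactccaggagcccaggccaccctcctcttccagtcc
Acot2: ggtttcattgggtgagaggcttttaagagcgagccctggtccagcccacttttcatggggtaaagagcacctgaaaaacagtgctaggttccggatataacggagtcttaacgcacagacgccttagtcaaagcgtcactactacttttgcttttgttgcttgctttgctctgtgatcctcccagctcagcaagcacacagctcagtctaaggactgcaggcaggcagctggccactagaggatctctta
Acot3: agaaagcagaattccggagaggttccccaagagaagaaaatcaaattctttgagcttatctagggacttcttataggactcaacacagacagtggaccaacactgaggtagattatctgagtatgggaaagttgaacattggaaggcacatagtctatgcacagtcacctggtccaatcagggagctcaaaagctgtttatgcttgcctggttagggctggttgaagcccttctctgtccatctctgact
Acot4: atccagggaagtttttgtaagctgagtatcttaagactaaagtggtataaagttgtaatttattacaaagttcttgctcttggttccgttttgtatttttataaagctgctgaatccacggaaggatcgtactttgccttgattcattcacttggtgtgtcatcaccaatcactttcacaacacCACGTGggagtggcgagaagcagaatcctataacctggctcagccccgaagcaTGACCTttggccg
Only the Acot4 stretch held either motif, CACGTG from 66 to 61 bases and TGACCT from 13 to 8 bases before the start. AGGTCA occurred in 14.0% and CACGTG in 6.02% of the 32851 promoter stretches of the same length. The direct repeat that PPARα with RXR binds was searched on both strands as AGGTCA, 1 base of any kind and AGGTCA again, which occurred in 0.0335% of the stretches, and more loosely as AGGNCA, 1 base of any kind and AGGNCA, in 0.338%. Neither form was found in a member. Of the 8 members with a RefSeq promoter entry, Acot12 was the other with AGGTCA, from 110 to 105 bases before its start at chr13:91741271-91741520, and Acot1, Acot2, Acot3, Acot7, Acot8 and Acot9 held none of these motifs. Aligned pairwise, the 4 printed stretches were 49.5% to 51.9% identical, and Acot1 and Acot8, from different families, were 51.6% identical. A match is a run of letters and a missing match covers these 250 bases only.

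The neighbours of these 4 genes changed less. Acot5, a peroxisomal medium-chain enzyme and no member of the set, was at -0.91 in MycF/F control liver and -1.09 to -0.75 in MycF/F,ERT2-Cre control livers, and at -0.02 to 0.64 and -0.48 to 0.28 on Wy-14643. It rose by 0.72 (SE 0.17, n = 4 and 4, adjusted p = 0.0108, limma) in MycF/F,ERT2-Cre livers and by 1.25 (SE 0.28, adjusted p = 0.0165) in MycF/F livers. Of the 5 nearest annotated genes on each side, 5 were tested: Riox1 (0.47, adjusted p = 0.00303) and Numb (0.36, adjusted p = 0.0214) rose slightly, whereas Papln at 0.19, Dnal1 at 0.11 and Pnma1 at 0.07 did not pass in MycF/F,ERT2-Cre livers. In MycF/F livers Papln was called (0.59, adjusted p = 0.0495) and the other 4 were not. Acot6 has no probe here. Acot1 to Acot6 are close paralogs and probe sequences were not used here, so how far a probe also reads a neighbour's transcript was not tested.

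Acot8 stands apart from the cluster as a type II enzyme, a peroxisomal thioesterase of broad substrate range that free coenzyme A inhibits. Its log2 ratio (A_51_P454078, no marked spot) was -1.43 in MycF/F control liver and -1.19, -1.36, -1.33 and -1.52 in MycF/F,ERT2-Cre control livers. Under treatment it was 0.43, 0.40 and 0.34 in MycF/F and 0.25, 0.38, 0.51 and 0.47 in MycF/F,ERT2-Cre livers. Both treated groups were tight and far above every control array. The log2 change of 1.75 in MycF/F,ERT2-Cre livers had a small error (SE 0.09, n = 4 and 4, adjusted p = 1.84e-07, limma), and in adjusted p it was the strongest result of the 9.

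Acot12, a cytosolic acetyl-CoA hydrolase found mainly in liver, rose less. Its log2 ratio (A_51_P414305) was -0.79 in MycF/F control liver and -0.89 (marked), -0.62 (marked), -0.51 and -0.75 in MycF/F,ERT2-Cre control livers. On Wy-14643 it was -0.07 (marked), -0.15 and -0.15 in MycF/F and 0.41 (marked), 0.13, 0.15 and -0.01 in MycF/F,ERT2-Cre livers. All treated arrays lay above all controls. The log2 change in MycF/F,ERT2-Cre livers was 0.71 (SE 0.11, n = 2 and 3, adjusted p = 0.00349, limma) and 0.88 with the marked spots. The call was lost when the Cy5 signal was used alone (0.62, adjusted p = 0.0798).

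Acot7, a cytosolic enzyme best known from brain that prefers arachidonoyl-CoA among other long-chain substrates, rose by a smaller step. Its log2 ratio (A_51_P328652) was -0.40 in MycF/F control liver and -0.28, -0.44, -0.39 and -0.30 in MycF/F,ERT2-Cre control livers. The treated values were 0.11, 0.24 (marked) and 0.11 in MycF/F and -0.04, 0.10, 0.25 and 0.21 in MycF/F,ERT2-Cre livers. The diets were separated by 0.21 with marked spots kept. The log2 change was 0.48 (SE 0.08, n = 4 and 4, adjusted p = 0.00196, limma), and the call was lost with the Cy5 signal alone (0.44, adjusted p = 0.125) and after scaling between arrays (0.67, adjusted p = 0.0734).

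Acot9 and Acot13 did not pass the test, and their diets overlapped. For the mitochondrial Acot9 (A_52_P392674, no marked spot) the log2 ratio was -0.33 in MycF/F control liver, -0.37, -0.05, -0.36 and -0.33 in MycF/F,ERT2-Cre control livers, -0.10, -0.08 and 0.00 in treated MycF/F livers and -0.26, -0.01, -0.16 and -0.02 in treated MycF/F,ERT2-Cre livers. Replicate 2 of the MycF/F,ERT2-Cre control livers was as high as the treated arrays. The log2 change was 0.16 (95% interval -0.04 to 0.36, adjusted p = 0.283, limma). Acot13, which associates with mitochondria and with the phosphatidylcholine transfer protein Pctp, was at -0.03 (A_51_P502422) in MycF/F control liver and at -0.05, 0.10, 0.08 and -0.08 in MycF/F,ERT2-Cre control livers, the last 3 marked. On Wy-14643 it was at 0.24 (marked), -0.02 and 0.14 in MycF/F and at 0.46 (marked), 0.31, 0.10 and 0.24 in MycF/F,ERT2-Cre livers. Its log2 change was 0.27 (95% interval -0.08 to 0.62, n = 1 and 3, adjusted p = 0.302), and with the marked spots 0.28 (SE 0.09, adjusted p = 0.0475), which passed the threshold.

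MycF/F livers gave the same picture with less precision, since they were compared with a lone control array assumed to vary like the others. Wy-14643 raised 6 of the 9 genes and lowered none, against 6.56% of 24909 called in either direction (3.34% higher and 3.22% lower). The log2 changes were 4.45 for Acot1 (SE 0.30, n = 1 and 2, adjusted p = 2.78e-05, limma), 2.62 for Acot2 (SE 0.29), 2.12 for Acot4 (SE 0.28), 2.03 for Acot3 (SE 0.19), 1.82 for Acot8 (SE 0.14) and 0.65 for Acot12 (SE 0.15, adjusted p = 0.0457). Acot7 at 0.51 (adjusted p = 0.0606) did not pass, and passed with the marked spots (0.54, adjusted p = 0.0491). Acot9 was at 0.27 and Acot13 at 0.09. Acot12 lost its call when any treated MycF/F array or replicate 2, 3 or 4 of the treated MycF/F,ERT2-Cre livers was left out (adjusted p up to 0.143), at a log2 change of 0.65 throughout. With the Cy5 signal alone the calls of Acot2 (3.01, adjusted p = 0.118), Acot3 (2.10, adjusted p = 0.0867), Acot4 (1.84, adjusted p = 0.0528) and Acot12 (0.85, adjusted p = 0.182) were lost. Scaling between arrays lost Acot4 (1.998, adjusted p = 0.0636), Acot8 (1.71, adjusted p = 0.526) and Acot12 (0.61, adjusted p = 0.133). The deposited log ratios lost Acot4 (2.11, adjusted p = 0.0711) and Acot12 (0.64, adjusted p = 0.179).

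**Figure D2:**
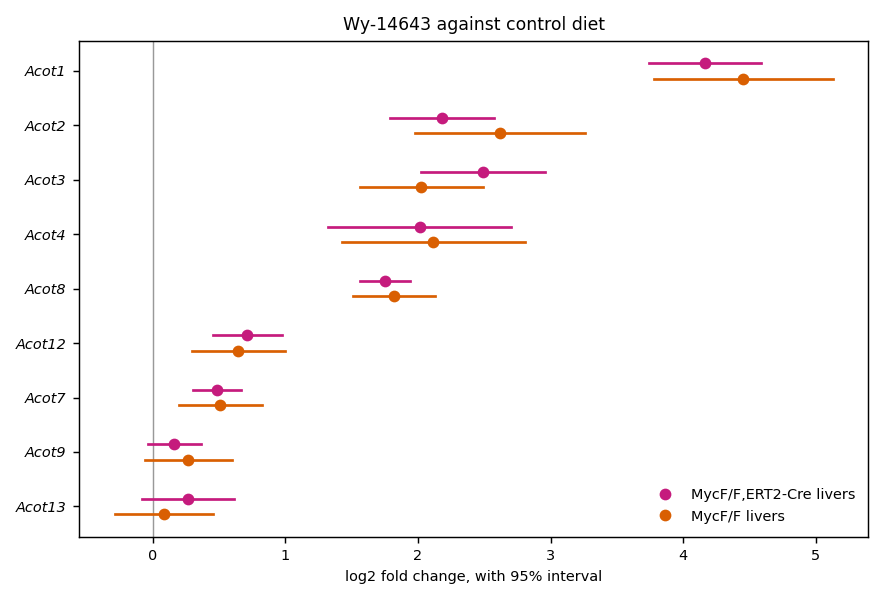
Log2 fold change of each gene on Wy-14643 against control diet (horizontal axis) in MycF/F,ERT2-Cre and in MycF/F livers; points are the fitted changes and lines their 95% intervals. Acot1 lies at 4.17 and 4.45, apart from all other members, and the intervals of Acot9 and Acot13 include 0 in both genotypes.

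The size of the response set Acot1 apart from the rest. Its 95% interval in MycF/F,ERT2-Cre livers, 3.75 to 4.59, overlapped with that of no other member. The intervals of Acot3 (2.03 to 2.96), Acot2 (1.79 to 2.57) and Acot4 (1.32 to 2.71) overlapped with each other. Differences between members were not tested, so these 3 were not ordered. The interval of Acot8, 1.56 to 1.94, lay below that of Acot3 and overlapped with those of Acot2 and Acot4. With marked spots kept, Acot3 (1.81 to 2.61) and Acot8 (1.58 to 1.97) overlapped as well, which does not settle their order. Acot12 (0.45 to 0.98) and Acot7 (0.30 to 0.66) overlapped with each other and lay below all of these. Each change is a ratio on its own probe, and probes can differ in how far they compress a ratio. The offset of 50 in the background correction draws the ratios of dim signals towards 0. For Acot2, Cy5 was only 46 to 133 over background in MycF/F,ERT2-Cre control livers. With the deposited log ratios Acot2 changed by 2.70 in MycF/F,ERT2-Cre livers and by 3.24 in MycF/F livers. The Acot9 probe was dim as well, with Cy5 at 89.5 to 207 over the 4 groups.

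Within the slides the rises were seen in each of the 3. With marked spots kept, the difference between treated and control MycF/F,ERT2-Cre livers on slides 1, 2 and 3 was 4.72, 3.78 and 4.50 for Acot1, 1.59, 2.20 and 2.65 for Acot2, 2.53, 1.85 and 2.50 for Acot3, 2.37, 1.68 and 2.34 for Acot4 and 1.53, 1.71 and 2.02 for Acot8. It was 1.16, 0.64 and 0.82 for Acot12 and 0.32, 0.49 and 0.54 for Acot7, and it changed sign only for Acot9, at -0.06 on slide 1 against 0.35 and 0.24. On slide 1 the treated MycF/F,ERT2-Cre array, replicate 1, was the highest of its group for Acot1, Acot3, Acot4, Acot12 and Acot13. It was the lowest for Acot2, Acot7, Acot8 and Acot9. Of these highs, those of Acot3, Acot4, Acot12 and Acot13 were marked spots. On the other Acot4 probe, unmarked in this group, replicate 1 was not the highest array. Without that array the 7 calls remained, with log2 changes of 4.02 for Acot1 and 2.33 for Acot2. Within slide 2, which held 1 array of each group, with marked spots kept, treated MycF/F exceeded control MycF/F by 4.45 for Acot1, 2.45 for Acot2, 2.14 for Acot3, 2.23 for Acot4 and 1.83 for Acot8.

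**Figure D3:**
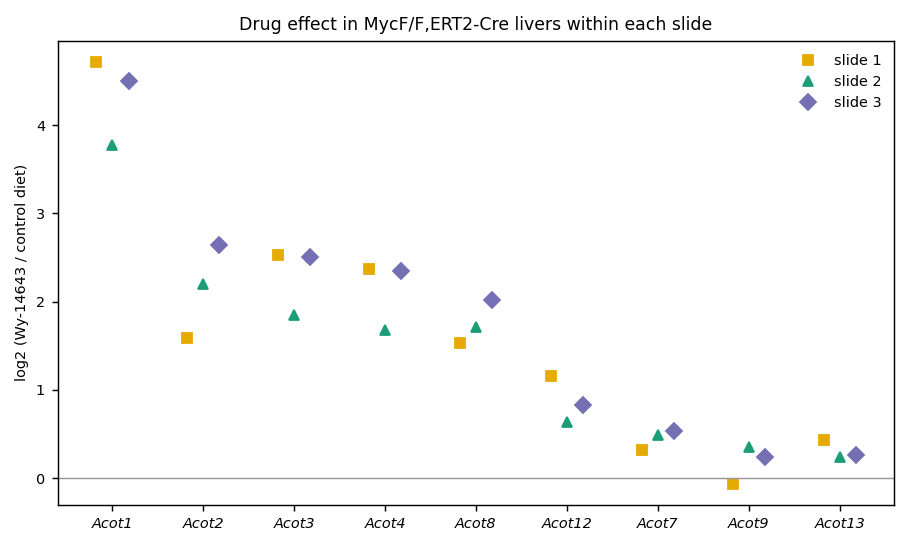
Log2 difference between treated and control MycF/F,ERT2-Cre livers (vertical axis) within each of the 3 slides, marked spots kept; each point rests on 1 to 2 arrays per diet and has no test. The 7 genes called in the fit are above 0 on all 3 slides, and Acot9 is at -0.06 on slide 1.

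No member passed the test between genotypes. With both genotypes on Wy-14643, 0 of 9 were called (limma), against 17 of 25150 (0.0676%, of which 0.0159% were higher and 0.0517% lower in MycF/F,ERT2-Cre), and 0 of 9 had an unadjusted p under 0.05. That background count of 17 was itself unsteady: it was 0 without any 1 of the treated MycF/F arrays or of replicates 2 to 4 of the treated MycF/F,ERT2-Cre livers, and 107 without slide 1. The differences ran from -0.33 for Acot2 (95% interval -0.75 to 0.10) to 0.24 for Acot12 (-0.03 to 0.50). For Acot8 the interval was -0.19 to 0.22 and for Acot7 -0.20 to 0.24, among the narrowest of the 9. Acot12 came nearest: with marked spots its difference was 0.29 (0.05 to 0.53), with an adjusted p of 0.495. On control diet, with a lone MycF/F array, 0 of 9 passed, against 0 of 24893 (0%, with 440 at an unadjusted p under 0.05), and the widest interval, that of Acot4, was -0.46 to 0.93. The drug effects differed between genotypes for 0 of 9, against 0 of 24873 (0%, with 540 unadjusted), with differences from -0.44 for Acot2 (-1.19 to 0.31) to 0.47 for Acot3 (-0.19 to 1.12). On Wy-14643 the sign of the difference changed under at least 1 alternative for Acot1, Acot3, Acot4, Acot7, Acot8 and Acot13, and a p that misses the threshold does not show that the genotypes respond alike.

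**Figure D4:**
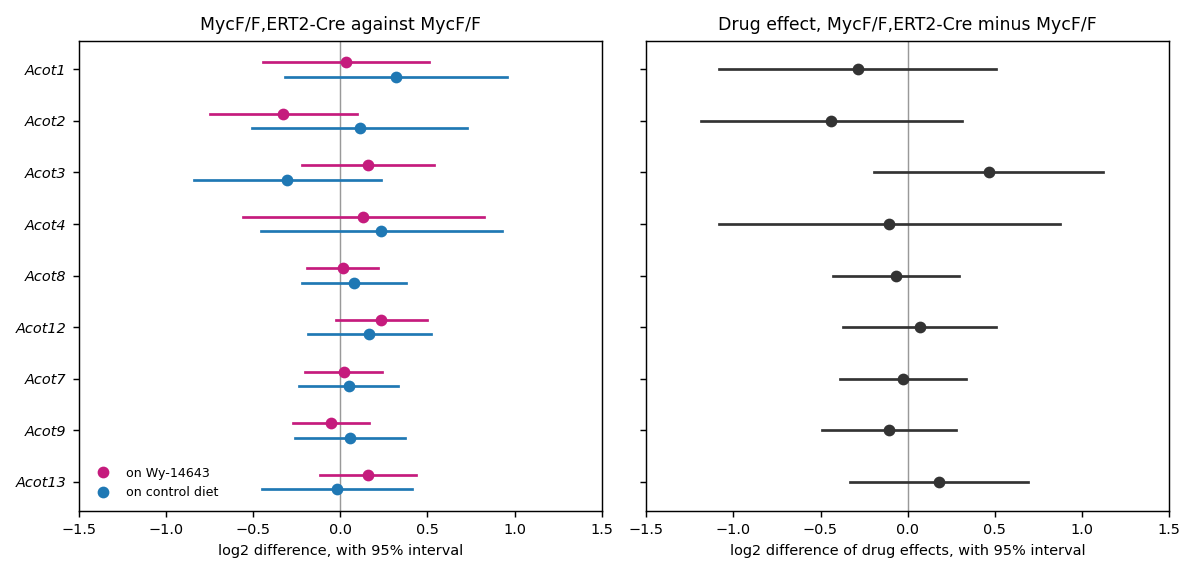
Left, log2 difference of MycF/F,ERT2-Cre from MycF/F on each diet; right, difference of the Wy-14643 effects between the genotypes; lines are 95% intervals. All intervals include 0, and for most genes they are wider where the single untreated MycF/F array enters.

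The other thioesterases and CoA-ester hydrolases, a list of 14 genes that holds Acot5, Acot10 and Acot11, moved in both directions. In MycF/F,ERT2-Cre livers 3 of 12 tested rose and 3 fell, beside 8.92% of all genes and unnamed probes higher and 7.44% lower. The median log2 change of the list was 0.01. Acot5, Them4 (0.55, adjusted p = 0.00355, limma), a mitochondrial thioesterase, and Hibch (0.53, adjusted p = 0.00147), which hydrolyses hydroxyisobutyryl-CoA in valine breakdown, rose. Baat, which joins bile acids to taurine or glycine and is related to the type I enzymes, fell by 0.88 (SE 0.12, adjusted p = 0.0014), as did Ppt2, a lysosomal thioesterase, by 0.46 (adjusted p = 0.00216). Acot11 also fell, by 0.62 with an adjusted p of 0.0499 (limma). It had 0 marked spots, and its call was lost when the marked spots of other probes were kept (adjusted p = 0.0512). A second Acot11 probe (A_51_P141741), fitted by itself, changed by -0.08 (adjusted p = 0.567, limma). Its Cy5 was 7 to 24 over background in control and 8 to 25 in treated MycF/F,ERT2-Cre livers. These signals lie below the offset of 50, which draws dim ratios towards 0, so this probe cannot test the call. The called probe was dim too, with Cy5 at 31 to 201 in control and 20.5 to 37 in treated MycF/F,ERT2-Cre livers. Its control values there had a standard deviation of 0.48.

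Many genes that make, bind or oxidise acyl-CoA rose, beside 8.92% of all genes and unnamed probes higher in MycF/F,ERT2-Cre livers and 3.34% in MycF/F livers. Of the acyl-CoA synthetases, which make the substrates of these thioesterases, 11 of 17 rose and 2 fell, led by Acsl1 (2.38, SE 0.12) and Slc27a1 (1.76, SE 0.20), which had 1 unmarked array per diet, so that its SE came from the spread in the treated MycF/F group and over all genes. Of the genes of CoA synthesis, degradation and transport 9 of 16 rose and 2 fell, led by Vnn1 (3.16, SE 0.18), the pantetheinase that splits pantetheine from CoA breakdown, and Ppcs (2.05, SE 0.10), an enzyme of CoA synthesis. Of the acyl-CoA and fatty acid binding genes 5 of 9 rose, with Fabp1 at 1.61 (SE 0.22) and Dbi, the acyl-CoA binding protein, at 1.42 (SE 0.15). Peroxisomal oxidation had 14 of 18 higher and 1 lower, with Ehhadh at 3.60 (SE 0.13) and Acaa1a at 3.18 (SE 0.18), and mitochondrial oxidation 14 of 16 higher, with Acadm at 2.21 (SE 0.15) and Acadl at 2.16 (SE 0.16). The list medians were 0.78, 0.36, 0.95, 1.57 and 1.43 in this order, beside 1.75 for the 9 thioesterases and 0.03 for all genes. In MycF/F livers the counts of genes that rose were 9 of 15, 5 of 16, 5 of 10, 11 of 17 and 13 of 16. No gene of these lists passed the test in a genotype comparison or in the interaction.

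**Figure D5:**
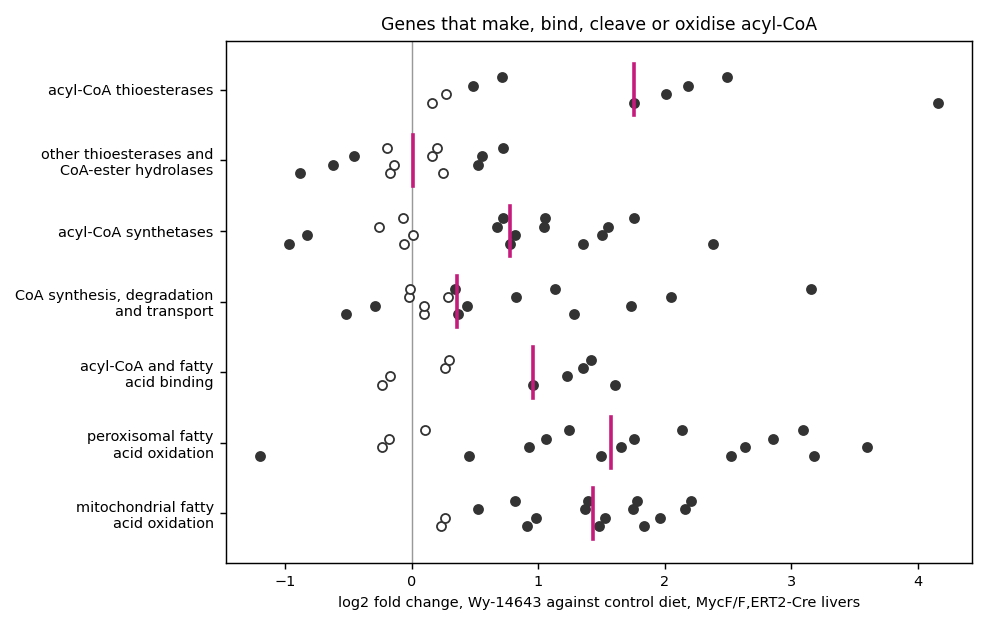
Log2 fold change on Wy-14643 in MycF/F,ERT2-Cre livers (horizontal axis) of each tested gene in 7 lists; filled points passed the test, open points did not, and bars are list medians. The 9 thioesterases, chosen with earlier results of these data known, have the highest median of the 7 lists, 1.75. The other thioesterases and CoA-ester hydrolases, which include Acot5 (0.72), Acot10 (0.20) and Acot11 (-0.62), have one of 0.01.

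Cell type markers moved with the diet too. In MycF/F,ERT2-Cre livers 6 of 9 hepatocyte markers fell and none rose (median log2 change -0.87). The mean log2 ratio of the 4 hepatocyte markers with a value on every array was 0.93 in MycF/F control liver, 0.95 to 1.21 in MycF/F,ERT2-Cre control livers, -0.05 to 0.20 in treated MycF/F and -0.14 to 0.63 in treated MycF/F,ERT2-Cre livers. Among Kupffer cell markers 7 of 11 fell (median -0.68), and the mean of 4 of them was 0.30, then -0.02 to 0.86, in the control groups and -0.70 to 0.05, then -0.35 to -0.10, in the treated groups. Of the stellate cell markers 4 of 10 fell, of the endothelial 3 of 10 and of the lymphocyte 2 of 9, beside 7.44% of all genes and unnamed probes lower. Of the cholangiocyte markers 1 of 8 rose and 1 fell, of the adipocyte markers 1 of 5 rose, and 0 of 7 neutrophil markers were called. In MycF/F livers, where 3.22% of all were lower, 4 of 9 hepatocyte, 3 of 10 Kupffer cell and 1 of 10 endothelial markers fell, and no stellate cell, lymphocyte, cholangiocyte, adipocyte or neutrophil marker was called. All tested markers were well above background on at least 3 arrays. In MycF/F,ERT2-Cre livers the 7 called members rose and the 6 called hepatocyte markers fell. The hepatocyte markers Hnf4a (0.02), Apob (-0.37) and Apoa1 (-0.58) did not pass the test there. The part of cell composition in the rises was not tested.

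The genes whose pattern over the arrays lay nearest to each member were found by the root mean square distance between centred log2 ratios, over the arrays on which the member was unmarked. For Acot1 (10 arrays) they were Cidec at 0.39, Ly6d at 0.42 and Spon2 at 0.42, beside a standard deviation of 2.09 for Acot1 itself. For Acot2 (12 arrays, standard deviation 1.19) they were Mogat1 at 0.23, Tmem98 at 0.23 and Ucp2 at 0.25. Acsl1 was the second nearest to both Acot3 (0.12, after Pla2g6 at 0.11 and before Ucp2 at 0.13) and Acot4 (0.14, after Lpcat3 at 0.13 and before Cbfa2t3 at 0.16), each over 6 arrays. For Acot8 (12 arrays, standard deviation 0.87) the nearest was Psmd4 at 0.10, then Grhpr and Dctn5, both at 0.15. Acot12 (8 arrays) was nearest to Abcb1b, Psmb6 and Lmbrd1, at 0.06 to 0.07, and Acot7 (11 arrays) to Cox18, Uqcrfs1 and Tmem134, at 0.05 to 0.06. Acot9 was nearest to Cbwd1, Ccdc124 and Klrg1, at 0.05 to 0.07, and Acot13 (7 arrays) to Cwc15, Olfr1491 and Chmp2a, each at 0.03. These 2 members varied so little (standard deviations of 0.14 and 0.13) that many genes lie close. The diet difference was not removed from the ratios, so a gene with a similar log2 change on Wy-14643 lies near a member. In MycF/F,ERT2-Cre livers Psmd4 changed by 1.76, for example, and Acot8 by 1.75.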

How the data were processed

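Whole-liver RNA was read on 12 Agilent arrays of 2 colours. Per the file headers, the deposited intensity values (median Cy5, Cy3 and local background signals) come from Agilent Feature Extraction 11.0.1.1, and the deposited log10 ratio of Cy5 to Cy3 was used only as an alternative. Depth has no counterpart on arrays; the number of arrays limits precision. Symbols came from RefSeq (GRCm38.p6), which matched 16792 of 17440 mRNA accessions. In R 4.3.3 with limma 3.58.1, signals were corrected by normexp (offset 50) and loess-normalized within arrays, outlier-marked spots were left out, and probes with Cy5 well above background on at least 3 of 12 arrays were kept. The brightest probe represented a gene. limma fitted the 4 group means to the 12 arrays together (eBayes); two-sided p-values took Benjamini-Hochberg adjustment across every gene or unnamed probe tested. The fit was tested on simulated data. Named were all 9 members, the 2 largest called changes of each other list, any list gene called between genotypes, the 3 genes nearest each member, Myc, the cluster's neighbours, and, chosen after their values were seen, Them4, Hibch, Ppt2 and Acot11. Members and lists were chosen with earlier results of these data known. Alternatives changed the slide or replicate block, values, scaling, filters, probes and arrays; those that combine kept outlier spots with the slide or with left-out arrays were added after seeing the data.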

Additional observations from a re-analysis of the deposited data

Results flagged for a closer look

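For Acot1, replicate 1 of the treated MycF/F,ERT2-Cre livers stood above the other 3 arrays of its group, with a log2 ratio of 1.41 against 0.80 to 0.90. For Acot9, replicate 2 of the MycF/F,ERT2-Cre control livers stood above the other 3, with a log2 ratio of -0.0458 against -0.37 to -0.33. Both arrays lie on slide 1. Each was the sample farthest from its group by the gap to its nearest neighbour over the group's range, a rule that chance meets in about 1 in 20 groups, and leaving either out changed no call of that gene.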

How the results depend on the processing

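The number of members that rose on Wy-14643 ran from 5 to 8 of 9 in MycF/F,ERT2-Cre livers and from 2 to 7 in MycF/F livers over the alternatives, and from 6 to 7 and from 5 to 7 when 1 array at a time was left out. The lows of 5 in MycF/F,ERT2-Cre livers came with the Cy5 signal alone and with the replicate block, where Acot3, Acot4 and Acot13 could not be fitted. In MycF/F livers the count was 2 with the Cy5 signal alone, 3 after scale normalization between arrays and 3 with the replicate number as a block, where Acot3, Acot4, Acot12 and Acot13 could not be fitted. Otherwise the cause was not tested. Replicate numbers were not taken to pair the arrays, since not every same-numbered pair correlated above 0.1 (-0.07 to 0.41 over 10 pairs). Arrays of 1 slide deviated together, with a mean correlation of 0.25 for 6 same-numbered pairs and 0.24 for 7 others, against 0.04 and -0.14 on different slides. With the slide as a block, 7 members rose in MycF/F,ERT2-Cre livers and 5 in MycF/F livers, where Acot3 could not be fitted. No genotype comparison called a member under any alternative (0 in each), and no called change reversed. Over all genes, the drug comparison called 4112 in MycF/F,ERT2-Cre livers, and 1299 with the Cy5 signal alone. In MycF/F livers it was 1635, and 2825 without slide 1 (2922 with outlier spots kept), 1054 with the deposited log ratios, 380 after scaling, 258 with the Cy5 signal alone and 1060 with outlier spots kept and without MycF/F Wy-14643 replicate 3. Between genotypes on Wy-14643 it was 17 and ran from 0, without any 1 of the treated MycF/F arrays or of replicates 2 to 4 of the treated MycF/F,ERT2-Cre livers, to 107 without slide 1. On control diet it was 0, 2 without slide 1 and 4 with the Cy5 signal alone. For Acot3, Acot4 and Acot13 a MycF/F,ERT2-Cre group was left with 1 unmarked array, which limits their precision.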
